A study of Homo sapiens with 24 samples.

Results

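Irradiation of the HNSCC line Cal33 was compared with sham treatment across all genes, on total RNA taken 24 h after a single x-ray dose of 4 Gy. The comparison holds 6 of the 24 libraries of the series, 3 replicates irradiated with 4 Gy and 3 sham controls, chosen by their labels as Cal33 libraries that received no GSK-J1. Cal33 is an established line from a squamous cell carcinoma of the tongue, labelled WT in genotype in all 6 libraries. The other libraries of the series hold Cal33 with GSK-J1, an inhibitor of the histone demethylases UTX and JMJD3, at 4.5 µM with and without 4 Gy, and the same 4 treatments in SAS, another tongue HNSCC line. They are used only where the irradiation response of Cal33 is set against them. No label or method states that replicates came from separate cultures, so each p-value speaks for the spread among these libraries, which may be technical.

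Ionizing radiation breaks DNA, and the breaks start a program of checkpoints, repair and damage-responsive transcription. In the days after irradiation, epithelial cells can also make type I and type III interferons, which act on the cell through JAK-STAT signaling and induce the interferon-stimulated genes of the antiviral defense. NF-κB and AP-1 are further stress-responsive factors that drive cytokines, growth factor ligands and wound-type genes. Squamous epithelium adds its own program, in which basal keratins give way to cornified envelope genes.

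The 6 libraries held between 64417175 and 92948903 counts on the strand of the gene, with a median of 73968250.5. Levels are given as CPM, counts scaled to the same library size after TMM normalization, which compare a gene between libraries but not genes of different length. All 15 markers of squamous epithelium fixed for the check of the label exceeded 1 CPM in every library. Of 27 markers of immune cells, fibroblasts, endothelium, muscle, melanocytes, blood and liver found in the files, 21 stayed under 1 CPM in every library, among them PTPRC, the common leukocyte antigen, with at most 5 counts in a library, and 4 had no count at all. The other 6 (CD14, ACTA2, VWF, PMEL, CDH5 and COL1A1) exceeded 1 CPM in every library. Of the 27, 19 had enough counts to be tested, and none of these was called. The summed level of the 27 ranged from 95 to 103.3 CPM in the sham libraries and from 68.3 to 78.5 CPM after irradiation. Replicate 1 of the irradiated group stood farther from its group than the others, with a median absolute log2 difference of 0.278 from the other irradiated libraries, against 0.171 and 0.195 for replicates 2 and 3. The sham libraries had values of 0.237 to 0.265.

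A total of 783 of 24555 genes tested differed between 4 Gy and sham at an adjusted p under 0.05, which is 3.19%, with 516 higher (2.1%) and 267 lower (1.09%) after irradiation. Of these, 572 changed by more than 2-fold, 413 higher and 159 lower, and the median log2 fold change was 1.78 among genes that rose and -1.12 among genes that fell. All 783 had no overlap between the groups, a property shared by 3294 genes higher and 3032 genes lower after 4 Gy among all tested. The median log2 fold change of all genes was 0.01. The count of calls rested on single libraries. It was 65 without sham replicate 1, 269 without sham replicate 3 and 327 without 4 Gy replicate 3, and no called gene was called in the opposite direction in any of the 6 fits that left out a library. A set of 49 genes, 41 higher and 8 lower, was called in the comparison and in each of these fits. The first 10 of them by p were CPA4, COLCA1, F3, POU2AF1, THBS1, IL6, PLK2, VIM, CXCL10 and CYR61. Every other gene named below as having risen or fallen lost its call in at least one of those fits, unless it is said to have kept it.

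**Figure D1:**
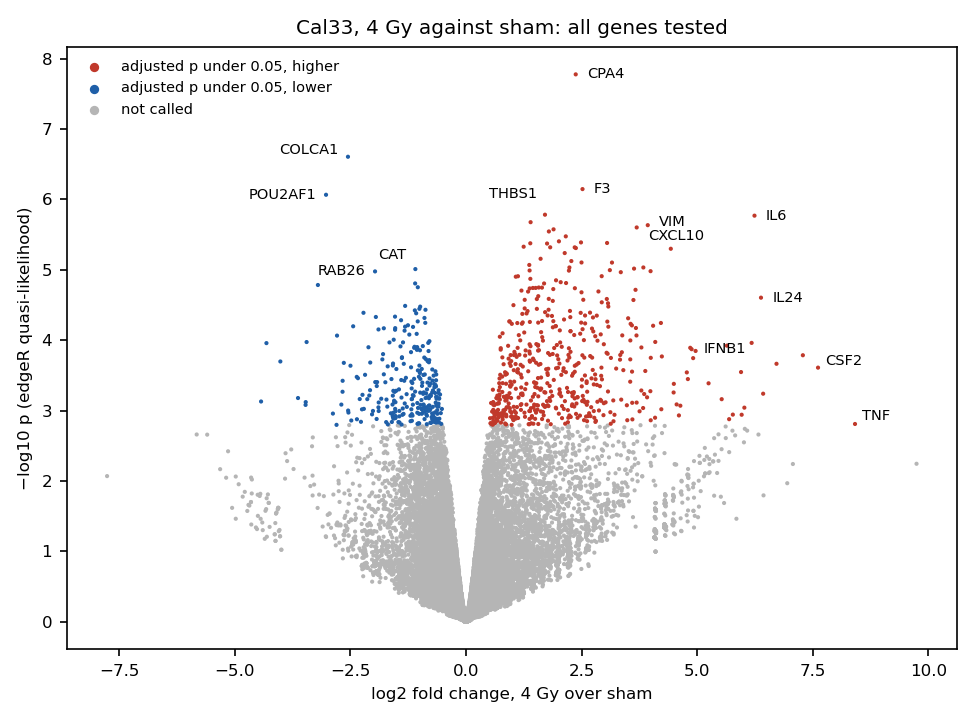
Each point is 1 of the 24555 genes tested in Cal33, with the log2 fold change of 4 Gy over sham on the x axis and −log10 of the unadjusted p on the y axis. The 516 genes that rose (red) reach larger changes than the 267 that fell (blue), and the fitted change of genes with almost no sham counts, such as TNF, depends on the prior count of the fit.

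The interferon response was the most uniform change. Of 43 interferon-stimulated genes tested, 36 rose after 4 Gy, none fell, and all 43 had a fold change above 0, with a median log2 fold change of 1.77. The summed level of the 43 genes was 5224, 4199 and 4049 CPM in sham replicates 1, 2 and 3, and 12980, 10510 and 17540 CPM in irradiated replicates 1, 2 and 3. The lowest irradiated library therefore held about as much again as the highest sham library. The 36 calls became 15 without sham replicate 1 and 22 without sham replicate 3, with medians of 1.85 and 1.55.

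Among the interferons themselves, IFNB1, the type I interferon of epithelial cells on chromosome 9 of hs37d5 from 21077104 to 21077943, had 3, 1 and 0 counts in sham replicates 1 to 3 and 55, 15 and 61 counts in irradiated replicates 1 to 3. The ratio of summed levels was 33.2, with a 95% interval of 12.7 to 124 that covers counting error only, and IFNB1 rose in the test (adjusted p = 0.0168). IFNL1, a type III interferon, had 0.792, 0.418 and 0.816 CPM in the sham libraries and 9.11, 1.96 and 4.48 CPM after irradiation (log2 fold change 2.93 ± 0.52, SE, adjusted p = 0.0215). Its paralogs IFNL2 and IFNL3 are near-identical in sequence, so the split of reads between them is uncertain, and their log2 fold changes were 3.55 (adjusted p = 0.0268) and 3.09 (adjusted p = 0.0596). The receptor chains were at similar levels in both groups, with log2 fold changes of -0.25 for IFNAR1, -0.16 for IFNAR2 and 0.00 for IFNLR1, none of which passed the test.

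CXCL10, which attracts T cells through CXCR3, had 0.833, 0.852 and 1.12 CPM in the sham libraries and 16.4, 5.85 and 14.1 CPM after 4 Gy, a log2 fold change of 3.69 ± 0.38 (adjusted p = 0.0056). Its neighbor CXCL11 rose alike, with a log2 fold change of 3.83. ISG15, the ubiquitin-like modifier, had 211, 204 and 196 CPM under sham and 1069, 536 and 1271 CPM after irradiation. In all 3 of these genes irradiated replicate 2 was the lowest of its group, yet far above every sham library. RSAD2, which encodes the antiviral enzyme viperin, went from 58.6 ± 1.08 CPM (SD, n = 3) to 262 ± 89.4 CPM (log2 fold change 2.16). OAS3, an oligoadenylate synthetase that activates RNase L, went from 288 ± 71.0 to 1017 ± 199 CPM (log2 fold change 1.82). CXCL10, RSAD2 and OAS3 kept their calls whichever library was left out, as did CMPK2, OAS1, OAS2 and IFI44L of the list.

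The sensors of cytosolic RNA belonged to the same group. DDX58, which encodes RIG-I, rose by 2.05 and IFIH1, which encodes MDA5, by 1.45 on the log2 scale. The 7 members that did not pass the test were IFI27 (2.58), IRF7 (1.80), DDX60 (0.91), STAT2 (0.80), IRF1 (0.64), PSMB9 (0.39) and PSMB8 (0.17 on the log2 scale). For IFI27, sham replicate 1 held 239 CPM and the other sham libraries 36.2 and 18.8 CPM, against 471 to 655 CPM after irradiation. IFI6, IFI44L, MX1, MX2, XAF1 and IRF7 were likewise highest in replicate 1 among the sham libraries.

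Promoter stretches of 6 interferon-stimulated genes are shown because the interferon-stimulated response element is the DNA letter pattern through which interferon signaling is known to act. They are the 6 called members with the smallest p among those whose 250 bases before the RefSeq start hold GAAA, any 2 bases and GAAA again on either strand. Sequences and positions are from RefSeq on GRCh38.p14, a later build than that of the count files, read 5′ to 3′ on the strand of the gene, and capitals mark the element.
CXCL10, chr4:76023649-76023747, minus strand: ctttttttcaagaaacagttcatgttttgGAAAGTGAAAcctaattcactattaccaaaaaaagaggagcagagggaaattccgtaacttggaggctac
OAS3, chr12:112938402-112938473, plus strand: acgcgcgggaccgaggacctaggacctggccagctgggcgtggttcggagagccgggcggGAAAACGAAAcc
ISG15, chr1:1013330-1013459, plus strand: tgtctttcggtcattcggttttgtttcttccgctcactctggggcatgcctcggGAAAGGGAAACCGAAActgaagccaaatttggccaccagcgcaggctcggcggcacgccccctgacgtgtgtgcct
IFIH1, chr2:162318685-162318765, minus strand: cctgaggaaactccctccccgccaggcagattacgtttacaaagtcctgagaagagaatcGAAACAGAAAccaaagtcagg
IFI44, chr1:78649711-78649788, plus strand: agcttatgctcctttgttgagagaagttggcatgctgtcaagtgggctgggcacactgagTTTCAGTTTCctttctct
EPSTI1, chr13:42992242-42992351, minus strand: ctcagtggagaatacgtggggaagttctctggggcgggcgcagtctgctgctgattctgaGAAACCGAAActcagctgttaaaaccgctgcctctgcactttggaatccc
In ISG15 the capitals cover 2 overlapping copies, and in IFI44 the element lies on the opposite strand.

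A RefSeq promoter was matched by symbol for 29 of the 36 interferon-stimulated genes that rose, and 17 of these 29 (58.6%) held the element, against 307 of 12056 promoters of all genes tested (2.55%). DDX58, OAS2, IFIT2, OASL, USP18 and MX2 were among those with no match. Of 35 matched promoters of the list, called or not, 19 (54.3%) held it. The list was made of genes known to respond to interferon, so these shares describe the list. Among all genes that rose, 35 of 323 matched promoters (10.8%) held it, the 17 included, and among those that fell, 2 of 160 (1.25%). A match is a description of the letters and not evidence of binding.

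**Figure D2:**
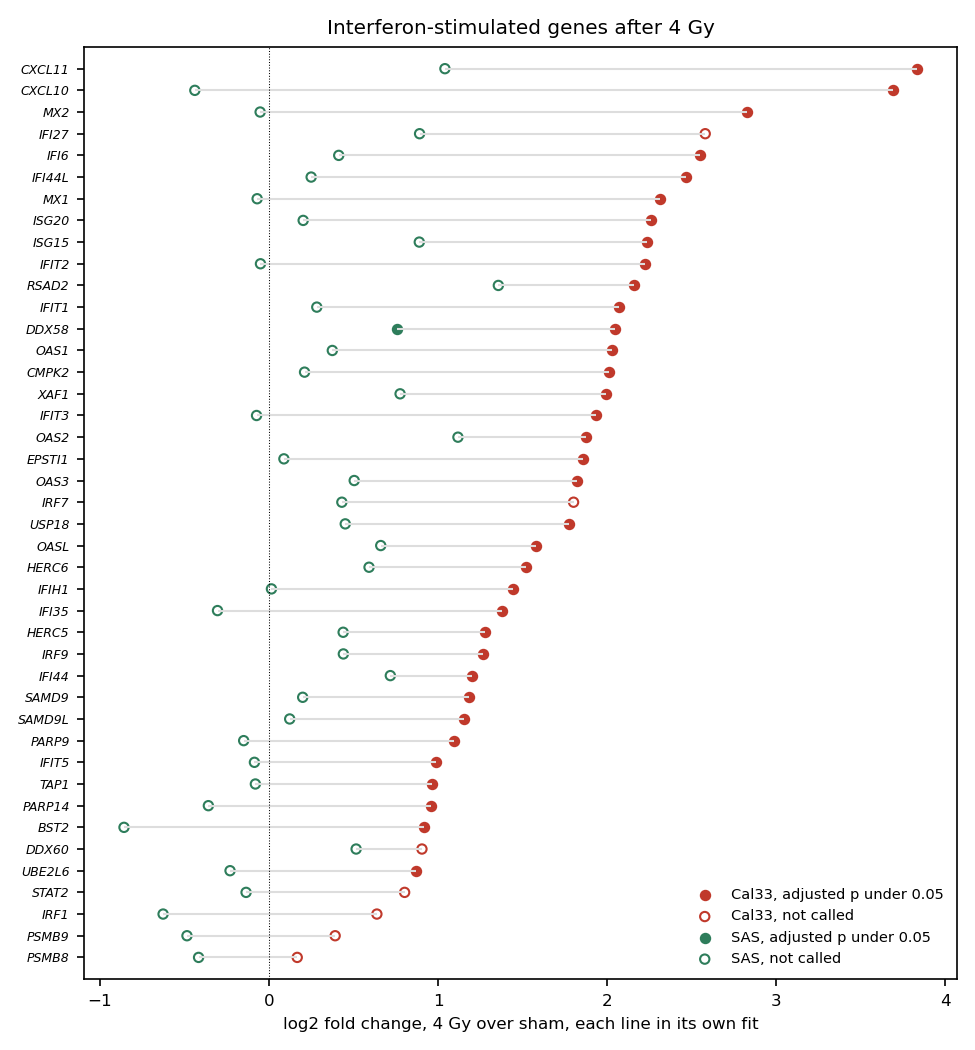
Interferon-stimulated genes in order of their log2 fold change after 4 Gy in Cal33 (red), beside the same contrast in SAS (green), each from the fit of its own line. Filled circles passed an adjusted p of 0.05, which most members did in Cal33 and DDX58 alone did in SAS.

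Antigen presentation through MHC class I, which interferons are known to raise, changed less. Of 18 genes tested 3 rose and none fell, with a median log2 fold change of 0.33. NLRC5, the transactivator of MHC class I genes, had 33.8, 28.4 and 24.7 CPM under sham and 56.8, 53.4 and 78.2 CPM after 4 Gy (log2 fold change 1.12). TAP1, a peptide transporter subunit, rose by 0.97 and B2M, the common light chain, by 0.56 on the log2 scale. The 3 calls became 1 without 4 Gy replicate 3 or without sham replicate 3, and 0 without sham replicate 1.

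Of 34 cytokines and other NF-κB targets tested, 9 rose, none fell and 33 had a fold change above 0, and the median log2 fold change of 2.09 was larger than that of the interferon-stimulated genes. IL6, on chromosome 7 of hs37d5 from 22765503 to 22771621, was nearly silent under sham, with 1, 9 and 2 counts in replicates 1 to 3, and had 446, 224 and 280 counts after irradiation. This is 0.058 ± 0.070 against 4.19 ± 1.5 CPM (SD, n = 3), a ratio of 80.2 with a 95% counting interval of 45.7 to 156, and IL6 kept its call whichever library was left out. TNF had no count in the sham libraries and 101, 7 and 19 counts after irradiation, which is at least 42.9-fold higher against a floor of 3 counts over the sham group (adjusted p = 0.0493). CSF2, which encodes GM-CSF, had 0, 1 and 4 counts under sham and 884, 73 and 64 after 4 Gy. IL24 had 4, 3 and 5 counts under sham and 748, 99 and 170 after 4 Gy. In TNF, CSF2 and IL24 most of the irradiated counts came from replicate 1.

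TNFAIP3, the feedback inhibitor A20, had 23.1, 14.4 and 28.4 CPM under sham and 219, 83.9 and 90.2 CPM after 4 Gy (log2 fold change 2.58 ± 0.38). The chemokines CCL5, CCL2 and CXCL2 rose by 2.26, 3.56 and 2.91 on the log2 scale, and the alarmin IL1A by 3.19. IL8, the neutrophil chemokine, had 29.2, 12.3 and 48 CPM under sham and 492, 170 and 57.9 CPM after irradiation. Its log2 fold change of 3.00 did not pass the test (adjusted p = 0.0518). The summed level of the list was 1446, 1027 and 2208 CPM under sham and 6658, 2825 and 2189 CPM after irradiation in replicates 1, 2 and 3, so that irradiated replicate 3 lay just under sham replicate 3. The 9 calls became 16 without 4 Gy replicate 3, 5 without sham replicate 2, 4 without sham replicate 3 and 1, IL6, without sham replicate 1. The κB pattern is GGG, any 3 bases and TTCC on either strand, sought within 250 bases before the start. Of 24 matched promoters of the list, called or not, 12 (50%) held it, against 6.44% of all 12056. The list was made of NF-κB targets, so this share describes the list. Of the members that rose, 3 of 7 matched promoters (42.9%) held it. Among all genes that rose, 34 of 323 (10.5%) did, and among those that fell, 11 of 160 (6.88%). The 2 cytokine promoters below are shown because IL6 and IFNB1 hold such a pattern close to the start, in capitals.
IL6, chr7:22727067-22727196, plus strand: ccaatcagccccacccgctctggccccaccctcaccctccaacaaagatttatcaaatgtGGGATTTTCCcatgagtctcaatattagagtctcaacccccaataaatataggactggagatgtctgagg
IFNB1, chr9:21077943-21078068, minus strand: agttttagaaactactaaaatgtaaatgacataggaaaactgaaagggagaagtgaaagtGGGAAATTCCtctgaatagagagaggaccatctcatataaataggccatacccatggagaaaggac

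Immediate response genes and growth factor ligands were each called in part. Of 25 genes of the AP-1, EGR and MAPK feedback list 8 rose and none fell (median log2 fold change 0.64). FOSL1, which encodes the AP-1 subunit FRA1, had 16.6, 21.2 and 29.6 CPM under sham and 170, 78.6 and 132 CPM after irradiation (log2 fold change 2.5 ± 0.29). JUN rose by 2.04, ATF3 by 2.02 and FOSB by 1.62 on the log2 scale, and so did the MAPK feedback phosphatases DUSP1 (1.77), DUSP4 (1.31) and DUSP5 (1.27) and the inhibitor SPRY4 (1.56). Without 4 Gy replicate 3 the calls became 3, and without sham replicates 1, 2 and 3 they became 1, 2 and 4. Of 13 genes of the EGFR family and its ligands 4 rose. They were the ligands HBEGF (log2 fold change 1.78), TGFA (0.92) and NRG1 (0.92) and the feedback inhibitor ERRFI1 (0.95). These 4 became 2 without 4 Gy replicate 1, 4 Gy replicate 3 or sham replicate 3, and 0 without sham replicate 1. The letters TGANTCA of the AP-1 element stood in 37 of 323 matched promoters of genes that rose (11.5%), in 8 of 160 of genes that fell (5.0%) and in 4.81% of all.

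Secreted and adhesion genes that TGF-β or the co-activator YAP are known to drive formed another group. Of 20 such targets 8 rose and none fell, with a median log2 fold change of 1.01 and a summed level of 1627 to 1840 CPM under sham against 3734 to 4868 CPM after 4 Gy. F3, which encodes tissue factor, the starter of blood coagulation, had 97.0, 184 and 161 CPM under sham and 911, 725 and 898 CPM after irradiation. Its log2 fold change was 2.52 ± 0.23 (adjusted p = 0.00526). THBS1, the matrix glycoprotein thrombospondin 1, went from 463 ± 81.0 to 1512 ± 243 CPM (SD, n = 3). CYR61 and ANKRD1, widely used YAP readouts, rose by 1.89 and 3.06 on the log2 scale. F3, THBS1 and CYR61 kept their calls in every fit that left out a library. The 8 calls became 5 without sham replicate 3 and 3 without sham replicate 1.

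Of 34 genes of the EMT and matrix list 11 rose and none fell (median log2 fold change 0.79). FN1, which encodes fibronectin, had 2.96, 3.33 and 4.72 CPM under sham and 25.5, 14.6 and 17.1 CPM after irradiation. VIM, the mesenchymal intermediate filament, had 0.069, 0.170 and 0.075 CPM under sham and 1.39, 1.46 and 1.89 CPM after irradiation, a large relative change (log2 fold change 3.93 ± 0.40) at a level that stayed low. Integrin ITGA5 rose by 1.38, the urokinase receptor PLAUR by 2.48 and N-cadherin CDH2 by 1.48 on the log2 scale. The transcription factors ZEB1 and SNAI1 rose by 2.54 and 1.70. ZEB1 stayed low, at 0.075 ± 0.038 CPM under sham and 0.456 ± 0.215 CPM after irradiation. Of the 34, 28 had a fold change above 0 and 6 below 0. E-cadherin CDH1, 1 of the 15 squamous markers, was not called. It had 183, 194 and 176 CPM under sham and 199, 198 and 206 CPM after irradiation. COL17A1, a hemidesmosome collagen of basal keratinocytes and thus no mesenchymal gene, rose by 0.71. FN1, THBS1 and VIM kept their calls. The 11 became 7 without 4 Gy replicate 3, 6 without sham replicate 2 or 3, and 4 without sham replicate 1.

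**Figure D3:**
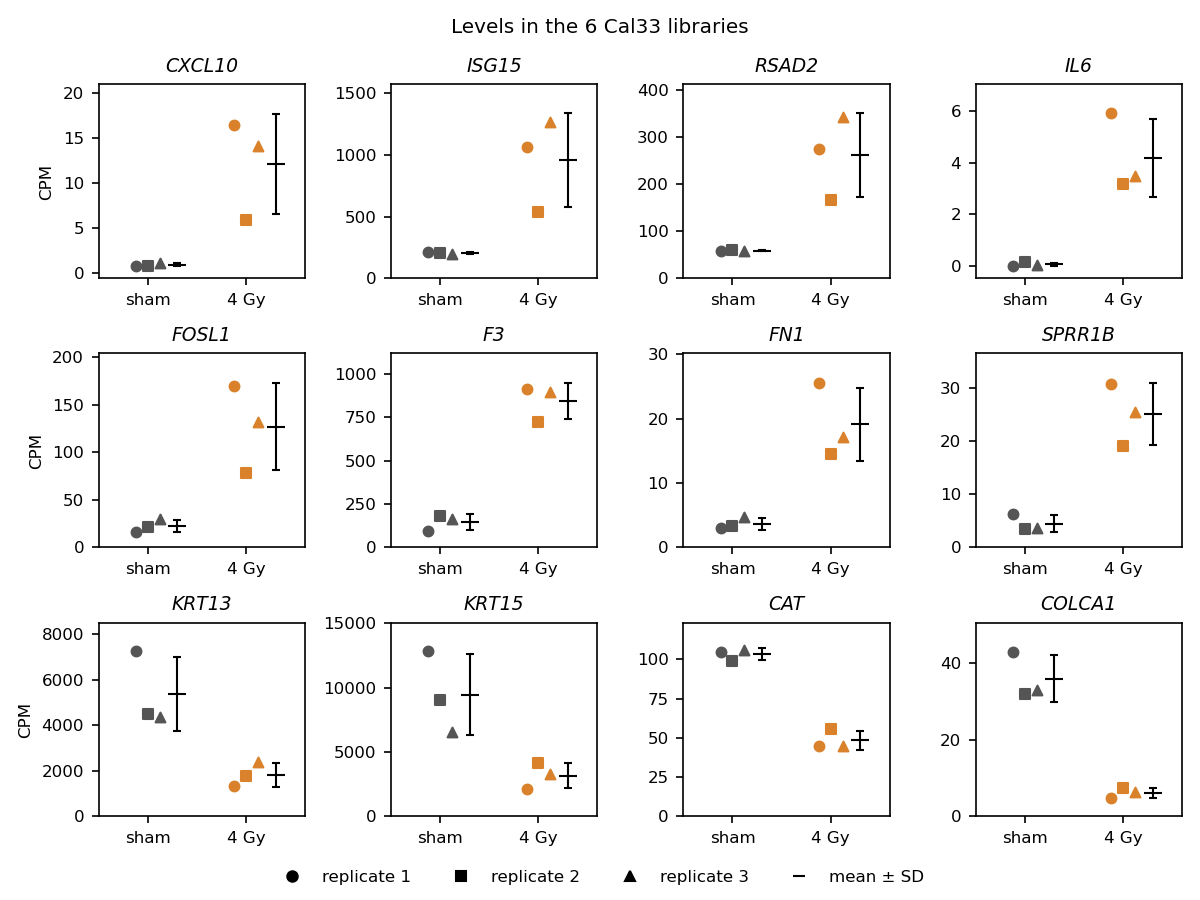
CPM of 12 genes in the 6 Cal33 libraries, with 1 panel per gene, 1 symbol per replicate and the mean ± SD of 3 libraries beside each group. In each panel the 3 irradiated libraries lie all above or all below the 3 sham libraries, with the irradiated replicates more spread than the sham replicates for CXCL10, ISG15 and FOSL1.

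Squamous differentiation genes that were called mostly rose. Of 54 tested, 15 rose and 1 fell, with a median log2 fold change of 0.66. Among those that rose were cornified envelope precursors at low levels and more abundant stress keratins. SPRR1B had 6.25, 3.55 and 3.61 CPM under sham and 30.7, 19 and 25.4 CPM after irradiation (log2 fold change 2.49 ± 0.27). SPRR1A, SPRR2A, SPRR2D, SPRR2E and SPRR3, of the same proline-rich family, rose by between 2.94 and 4.43 on the log2 scale. SPRR2 genes are near-identical copies, so the split of reads among them is uncertain. Among keratins, KRT6A (1.06), KRT6B (2.49), KRT17 (1.41) and KRT80 (1.79 on the log2 scale) rose. SPRR1B, KRT6B and KRT80 kept their calls. The 15 became 8 without sham replicate 3 and 3 without sham replicate 1.

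A pair of abundant keratins moved the other way, KRT13 of that list and KRT15 of the squamous markers. KRT13, a keratin of the suprabasal layers of the tongue and other non-cornified epithelia, had 7249, 4487 and 4348 CPM under sham and 1320, 1751 and 2367 CPM after irradiation (log2 fold change -1.56 ± 0.25). KRT15, a basal keratin, had 12820, 9026 and 6513 CPM under sham and 2123, 4112 and 3257 CPM after irradiation (log2 fold change -1.58 ± 0.28). Both lie close together on chromosome 17 of hs37d5, KRT13 from 39657233 to 39661957 and KRT15 from 39669995 to 39678781. The summed level of the differentiation list, of which KRT13 is the largest member, overlapped between the groups, at 6783 to 10330 CPM under sham and 5457 to 7270 CPM after irradiation.

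Of the 516 genes that rose, 12 lie in the epidermal differentiation complex. Between S100A10 and S100A1, on chromosome 1 of hs37d5 from 151955391 to 153604513, 45 genes were tested, 12 rose and none fell, which is 26.7% called against 3.19% of all genes, and their median log2 fold change was 1.02. This window was chosen after the values were seen and shares most of its members with the differentiation list. S100A7, an antimicrobial S100 protein, had 0.417, 1.04 and 0.655 CPM under sham and 8.01, 9.33 and 4.07 CPM after 4 Gy. S100A8 rose by 1.95 and S100A12 by 2.20 on the log2 scale. The 7 members with the highest mean counts did not pass the test. Of these, S100A6, S100A14 and S100A16 had log2 fold changes between -0.01 and 0.14, with overlap between the groups. S100A11 (0.20), S100A2 (0.42) and S100A10 (0.48) had no overlap. S100A9 had 146, 60.2 and 94.8 CPM under sham and 516, 330 and 162 CPM after irradiation, also without overlap, and a log2 fold change of 1.75 (adjusted p = 0.0504).

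Of 33 DNA damage-responsive genes 4 rose at 24 h, where 2.1% of all genes tested did, and none of the 33 fell, with a median log2 fold change of 0.17 and a summed level of 972 to 1086 CPM under sham against 1300 to 1832 CPM after irradiation. PLK2, a polo-like kinase, had 68.6, 87.3 and 74.4 CPM under sham and 223, 204 and 180 CPM after irradiation, and kept its call in every fit. PMAIP1, which encodes the BH3-only protein NOXA, rose by 1.89, the nuclease AEN by 1.17 and PLK3 by 1.19 on the log2 scale. The cyclin-dependent kinase inhibitor CDKN1A had 115, 65.5 and 58.6 CPM under sham and 158, 92.4 and 124 CPM after irradiation, with overlap between the groups, and its log2 fold change of 0.65 did not pass the test (adjusted p = 0.214). MDM2, a ubiquitin ligase, had 38.7 ± 4.42 and 41.8 ± 3.04 CPM (log2 fold change 0.11). The 4 calls became 2 without sham replicate 3 and 1 without sham replicate 1.

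None of 45 genes of double-strand break repair and signaling, 48 of G1/S and replication, 48 of G2/M and mitosis and 31 of the centromere passed the test, where 3.19% of all genes tested did. Their median log2 fold changes were 0.09, 0.16, 0.04 and -0.04. The smallest p among the mitotic genes belonged to KIF20A, a mitotic kinesin, with 145, 205 and 208 CPM under sham and 139, 140 and 118 CPM after irradiation (log2 fold change -0.49, adjusted p = 0.129). The summed level of the G1/S genes was 4024, 6220 and 4128 CPM under sham, so sham replicate 2 alone was above all 3 irradiated libraries, which held 4363 to 5801 CPM. Of 62 clustered histone genes only HIST1H2BJ rose (log2 fold change 1.75), where 2.1% of all genes tested did, and the median was 0.64. The summed level of the 62 overlapped between the groups, at 51.5 to 102 CPM under sham and 73.1 to 156 CPM after irradiation. Histone genes are near-identical copies and their reads can be split uncertainly. Without 4 Gy replicate 1, 4 histone genes were called higher, and without 4 Gy replicate 2 or 3, or sham replicate 1 or 3, none was. Of 16 BCL2 family genes the proapoptotic BIK (1.51) and PMAIP1 rose, and of 14 death receptor genes TNF did, beside the same 2.1% of all genes. BIK and PMAIP1 lost their calls without sham replicate 1, and TNF without 4 Gy replicate 3 or any one of the sham libraries.

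Levels of genes for lipid synthesis and respiration leaned lower. Of 25 cholesterol synthesis genes 24 had a fold change below 0, with a median log2 fold change of -0.47, and 4 fell. They were squalene synthase FDFT1 (-0.65), the sterol-regulated INSIG1 (-0.76), the sterol reductase TM7SF2 (-0.92) and the methylsterol oxidase MSMO1 (-0.74 on the log2 scale). The summed level of the 25 was 5728, 5106 and 4506 CPM under sham and 3314, 4036 and 3911 CPM after irradiation, with no overlap. The 4 calls became 2 without 4 Gy replicate 2, 1 without sham replicate 3, and 0 without 4 Gy replicate 1, 4 Gy replicate 3 or sham replicate 1. Of 14 fatty acid synthesis genes none passed the test and 12 had a fold change below 0. SCD, the stearoyl-CoA desaturase, had 1538, 1123 and 1088 CPM under sham and 426, 866 and 609 CPM after irradiation (adjusted p = 0.0602).

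The genes encoded by mitochondrial DNA took 9.86%, 10.06% and 10.01% of the counts of sham replicates 1, 2 and 3, and 7.79%, 6.76% and 7.21% of those of the irradiated replicates. Of 34 tested, MT-ATP6 (log2 fold change -0.70), MT-CO3 (-0.60) and MT-ATP8 (-0.62) fell and none rose. These 3 became 5 without 4 Gy replicate 1, 1 without sham replicate 2 and 0 without any of the remaining 4 libraries. Of 82 nuclear genes of the respiratory chain 73 had a fold change below 0, with a median log2 fold change of -0.23, but none passed the test, and UQCRC1 had the smallest p (-0.47, adjusted p = 0.0695). The 81 cytosolic ribosomal protein genes, none of which passed, had a median of 0.00. In bulk RNA, fewer transcripts per cell and fewer cells with them cannot be told apart.

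Of 24 NRF2 targets, which include detoxifying and antioxidant enzymes, 2 rose and 4 fell. CAT, EPHX1, GSTA4 and PPARGC1A are no members of that list and were chosen from the 267 genes that fell after their values were seen. Catalase, CAT, had 105, 99.2 and 106 CPM under sham and 44.8, 55.3 and 44.9 CPM after irradiation (log2 fold change -1.10 ± 0.13) and kept its call. The epoxide hydrolase EPHX1 fell from 241 ± 42.8 to 115 ± 17.1 CPM and the glutathione transferase GSTA4 from 3.81 ± 1.26 to 0.884 ± 0.328 CPM. CPT1A, the entry enzyme of mitochondrial fatty acid oxidation, fell by 0.83 and PPARGC1A, the co-activator of mitochondrial biogenesis, by 1.57 on the log2 scale. Of the list, the iron-storage subunit FTH1 (0.94) and heme oxygenase HMOX1 (1.03) rose, while AKR1B10 (-1.05), GCLC (-0.84), PIR (-0.66) and PGD (-0.56 on the log2 scale) fell. Without sham replicate 1 none of the 6 was called. The 4 that fell became 2 without 4 Gy replicate 2, sham replicate 2 or sham replicate 3, and 1 without 4 Gy replicate 3. The 2 that rose became 1 without 4 Gy replicate 3 or sham replicate 3.

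**Figure D4:**
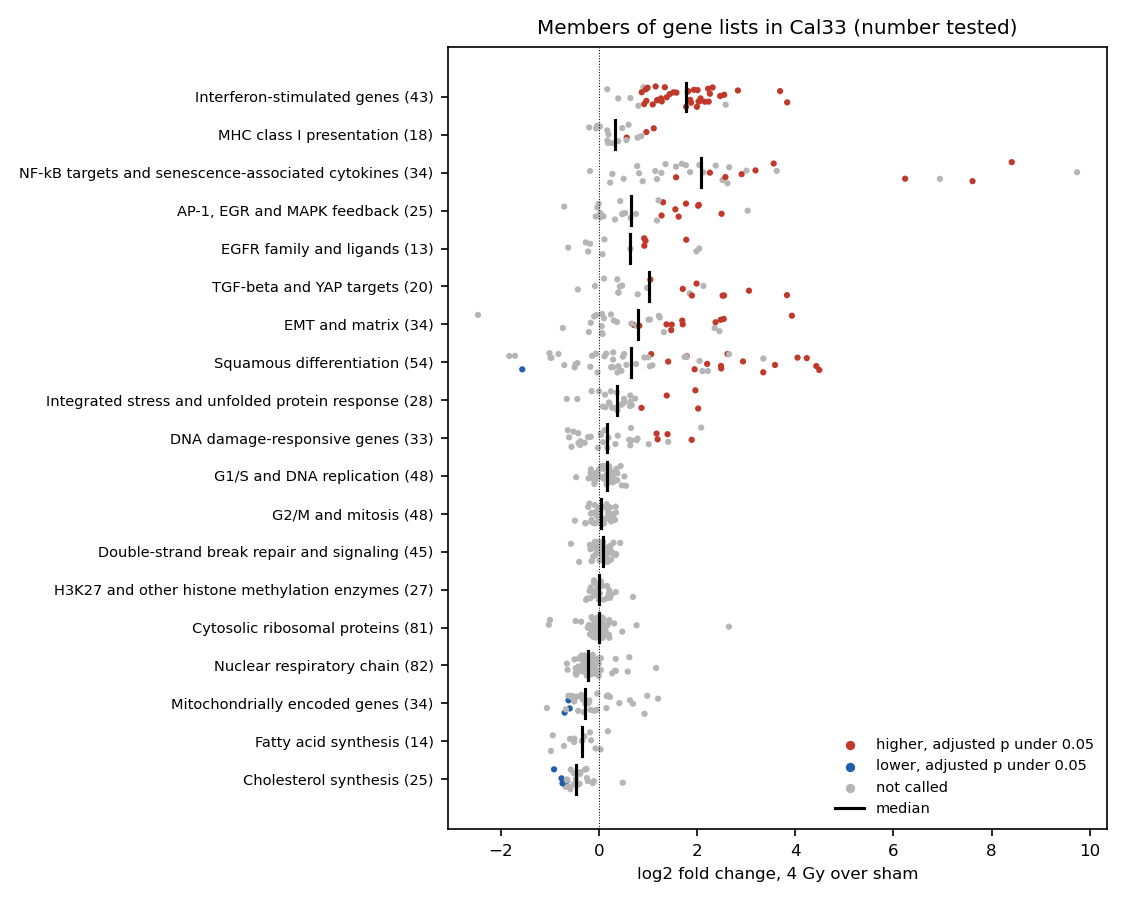
Log2 fold change of 4 Gy over sham for every tested member of 19 gene lists, each dot 1 gene, with the number tested in brackets and the median as a black bar. The interferon-stimulated genes lie wholly above 0, the cell cycle and repair lists cluster around 0, and the cholesterol synthesis list lies below 0 but for 1 member.

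Among markers used for cancer stem cells in HNSCC, 1 of 19 rose and 3 fell. The transcription factor KLF4 rose by 1.56. The aldehyde dehydrogenases ALDH3A1 and ALDH1A1 and the pluripotency factor SOX2 fell. ALDH3A1 had 582, 210 and 765 CPM under sham and 153, 71.6 and 83.2 CPM after irradiation, and SOX2 had 92.9, 64.5 and 59.3 CPM against 18.7, 41.0 and 29.4 CPM. The 3 that fell became 4 without 4 Gy replicate 1, 1 without 4 Gy replicate 2, sham replicate 2 or sham replicate 3, and 0 without 4 Gy replicate 3 or sham replicate 1. The KLF4 call was lost without sham replicate 1. CD44, the hyaluronan receptor, had 442, 426 and 573 CPM under sham and 854, 644 and 705 CPM after irradiation, without overlap, and a log2 fold change of 0.61 (adjusted p = 0.0705). ALDH1A3, a retinaldehyde dehydrogenase, had 190 ± 7.12 and 241 ± 96.2 CPM (log2 fold change 0.34, adjusted p = 0.449), the higher mean resting on irradiated replicate 1 with 351 CPM. PROM1, which encodes CD133, was at 0.060 ± 0.031 and 0.126 ± 0.064 CPM.

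The messages of the H3K27 demethylases, which the study went on to target, did not pass the test. KDM6A, which encodes UTX, had 31.7, 42.1 and 47.7 CPM under sham and 75, 53.7 and 67.6 CPM after irradiation, all higher than sham, with a log2 fold change of 0.69 ± 0.18 (adjusted p = 0.0746). KDM6B, which encodes JMJD3, had 86.2 ± 29.3 and 109 ± 31.4 CPM, with overlap (log2 fold change 0.34, adjusted p = 0.516). None of the 27 histone methylation enzymes of the list passed, and their median log2 fold change was -0.01. KDM6A had the smallest p of the 27. In Cal33 with GSK-J1, KDM6A was called higher after 4 Gy by the same test (log2 fold change 0.76 ± 0.14, adjusted p = 0.023). A difference between the 2 contrasts was not called.

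Of 29 hypoxia and glycolysis genes 4 rose and 1 fell. Hexokinase HK2 had 42.0, 51.2 and 55.4 CPM under sham and 134, 112 and 143 CPM after irradiation and kept its call. VEGFA rose by 1.21, BNIP3 by 1.66 and carbonic anhydrase CA9 by 1.95 on the log2 scale, and the aldolase ALDOC fell by 0.77. The 4 became 2 without sham replicate 1 or 3. The ALDOC call was lost without 4 Gy replicate 2, 4 Gy replicate 3, sham replicate 1 or sham replicate 3. Of 28 genes of the integrated stress and unfolded protein responses 4 rose, among them DDIT3, which encodes CHOP, by 1.38 on the log2 scale. The 4 became 2 without 4 Gy replicate 3 or sham replicate 2, 1 without sham replicate 3 and 0 without sham replicate 1.

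Smaller lists gave few calls, to be read beside the 2.1% of all genes tested that rose and the 1.09% that fell. Lists share members, so several of these calls were counted above. Of 18 senescence markers IL6, IL1A and IGFBP3 (log2 fold change 1.57) rose, all also members of the list of cytokines and NF-κB targets. The median of the 18 was 0.72, and of these calls only IL6 was kept in each fit that left out a library. Of 26 autophagy and lysosome genes the cargo receptor SQSTM1 rose (0.75). Of 15 glucocorticoid targets DUSP1 and ERRFI1 rose, both counted above in the AP-1 or EGFR list. Of 11 genes of the aryl hydrocarbon receptor axis ALDH3A1 fell, which is counted above among the stem cell markers. Of 23 abundant long noncoding RNAs SNHG12 (1.03), PVT1 (0.79) and LINC00152 (0.95 on the log2 scale) rose. None of 14 heat shock protein genes and 4 metallothioneins passed the test, with medians of 0.26 and -0.52. Of the 15 squamous markers KRT6A and KRT17 rose and KRT15 and SOX2 fell. All of these calls but that of IL6 were lost without sham replicate 1.

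**Figure D5:**
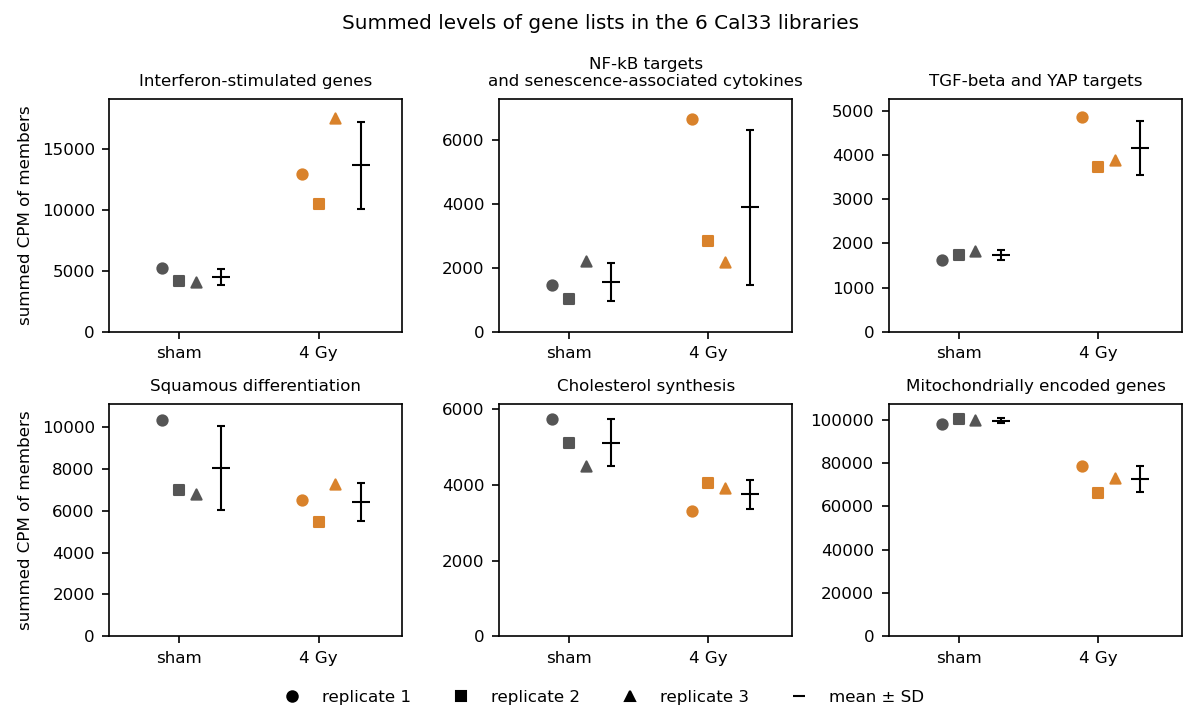
Summed CPM of the tested members of 6 gene lists in each of the 6 Cal33 libraries, with 1 symbol per replicate and the mean ± SD of 3 libraries beside each group. The interferon-stimulated, TGF-β and YAP, cholesterol synthesis and mitochondrially encoded sums do not overlap between sham and 4 Gy, and the cytokine and squamous differentiation sums do.

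The gene with the smallest p of the comparison was CPA4, a carboxypeptidase on chromosome 7 of hs37d5 from 129932974 to 129964020. It had 59.3, 68.7 and 51.4 CPM under sham and 322, 290 and 316 CPM after irradiation, a log2 fold change of 2.37 ± 0.14 (adjusted p = 0.000409). The genes with the smallest p among those that fell were neighbors. COLCA1, on chromosome 11 of hs37d5 from 111164114 to 111175770, had 43.0, 32.0 and 33.0 CPM under sham and 4.79, 7.32 and 6.29 CPM after irradiation (log2 fold change -2.55 ± 0.21). POU2AF1, which encodes a co-activator of OCT transcription factors, lies from 111222977 to 111326355 and had 13.1, 8.14 and 7.14 CPM against 1.11, 1.07 and 1.29 CPM (log2 fold change -3.03 ± 0.28). COLCA2, which overlaps COLCA1 on the opposite strand and was chosen after its value was seen, fell by 1.40 on the log2 scale. Both COLCA1 and POU2AF1 kept their calls whichever library was left out. Other genes with large decreases were the guanine deaminase GDA, the alkylglycerol monooxygenase AGMO and the tight junction gene CLDN8, with log2 fold changes of -3.45, -3.20 and -2.79, all under 2.2 CPM in every library.

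The same dose was given to Cal33 cells treated with GSK-J1, in 6 further libraries. There 895 of 24437 genes were called (3.66%), 583 higher (2.39%) and 312 lower (1.28%). With the replicate number as a block, 4494 were called, and the cause of that rise was not tested. Equal numbers in that pair of groups had r = 0.156 to 0.582 across 18218 genes, which are not independent. Irradiated replicate 2 with unirradiated replicate 3 had 0.263. Of the 516 genes that rose without GSK-J1 all 516 had a fold change above 0 in that contrast and 396 (76.7%) rose there too, which is 67.9% of the 583. All 267 that fell had a fold change below 0 there, and 178 (66.7%) fell, which is 57.1% of the 312. Of all genes tested in both contrasts, 51.6% had a fold change above 0 there and 2.47% rose, while 48.4% were below 0 and 1.32% fell. The interferon-stimulated genes had 37 of 43 members called higher there, with a median log2 fold change of 1.86. These libraries are distinct from those of the comparison, but irradiated libraries of equal number with and without GSK-J1 deviated from their group means together (r = 0.604 to 0.811 across the same genes), so the contrasts are not independent. The 895 became 275 without irradiated replicate 3 and 549, 101 and 290 without unirradiated replicates 1, 2 and 3. No gene passed the test of the difference between them, among 24351 tested with edgeR, where 209 had an unadjusted p under 0.05, and DESeq2 called 0 too.

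In SAS, 4 Gy against sham gave 897 of 23287 genes (3.85%), 502 higher (2.16%) and 395 lower (1.7%), and 3869 with the replicate number as a block (same-numbered r = 0.242 to 0.447 across 18218 genes). Of the genes that rose in Cal33, 480 were also tested in SAS, where 403 (84.0%) had a fold change above 0 and 110 (22.9%) rose, against 47.4% and 2.21% of all genes tested in both. The 110 are 21.9% of those that rose in SAS. The 897 became 136, 154 and 147 without irradiated replicates 1, 2 and 3, and 285, 233 and 2532 without sham replicates 1, 2 and 3. Of the genes that fell in Cal33, 241 were tested in SAS, where 201 (83.4%) had a fold change below 0 and 36 (14.9%) fell. Among all genes tested in both, these shares were 52.6% and 1.8%. The 36 are 9.11% of the genes that fell in SAS. Of the genes that rose in Cal33, 1 was called lower in SAS, KRT17 (log2 fold change -0.47, adjusted p = 0.035 in the same test). Of those that fell in Cal33, 1 was called higher in SAS. FN1, TNFAIP3, CSF2, IL24, KRT6B and PLAUR rose in both lines. The interferon-stimulated genes, by contrast, had a median log2 fold change of 0.20 in SAS, and DDX58 alone was called. The ISG15 level in SAS was 7.65 ± 2.19 CPM under sham and 14.2 ± 2.51 CPM after irradiation.

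The difference of the irradiation effect between the lines was tested directly, and 23 of 24621 genes passed (0.0934%), 12 with a larger (0.0487%) and 11 with a smaller (0.0447%) log2 fold change in Cal33. Among the 43 interferon-stimulated genes 2 passed, of which IFIT5 is named here after its value was seen, so for the other members a difference between the lines was not shown at the threshold. The count was 0 when 4 Gy replicate 3 of Cal33, or any of 4 of the 6 SAS libraries, was left out, 4 without SAS sham replicate 2, 10 without Cal33 sham replicate 2, 39 without Cal33 sham replicate 1, 67 without Cal33 4 Gy replicate 2 and 97 without SAS sham replicate 3. The absence of a called difference in some of these fits does not show that the lines responded alike.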

How the data were processed

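RNA-seq libraries of 24 samples were deposited, and 6 form the comparison. Per the labels and the study's methods, the authors aligned paired reads of a stranded total RNA protocol to hs37d5 with STAR 2.5.3a and counted them per gene with featureCounts of Subread 1.5.1. The deposited raw counts, unfiltered and not normalized, cover 57820 genes. Only the column for the gene's own strand, with 94.81% to 95.02% of stranded counts, was analysed. The FPKM and TPM columns were not used. In R 4.3.3, edgeR 4.0.16 (TMM, quasi-likelihood F test, no covariate) tested genes averaging 1 count or more per library, with calls at a Benjamini-Hochberg adjusted p below 0.05. The SE is the absolute log2 fold change divided by the square root of F. DESeq2 1.42.0 was an alternative. The authors' own test was DESeq2.

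The gene lists (35) and comparisons were chosen with earlier results of these data known. The genes named were the 15 most changed calls per direction that averaged 10 counts or more and had no overlap, the called members of each list (the 8 with the smallest p, or the 3 with the smallest p where none was called), CDKN1A, MDM2, KDM6A, KDM6B, CD44, PROM1, ALDH1A3, and 5 per direction of each test of a difference. Further list members and others said to be chosen so were named after their values were seen. Some genes the rule names are not reported here. The test was checked on simulated counts.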

Additional observations from a re-analysis of the deposited data

Results flagged for a closer look

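The effect of 4 Gy differed between Cal33 and SAS for 13 of the 176 genes named by the rule. The test was that of the difference itself (edgeR's quasi-likelihood test of the interaction). CPA4, ALOXE3, SERPINB10, WNT9A, BARX2, AC016683.6 and CPT1A were named only for being among the smallest p of this same test. That they passed therefore follows from the choice. IL6, F3 and HK2 were picked by it too, but were also named as called list members in Cal33. VIM, BIK and ALDOC were named as called list members alone. Differences are the log2 fold change in Cal33 minus that in SAS. The difference was larger in Cal33 for IL6 (4.06, adjusted p = 0.0347), F3 (2.23, 0.0221), CPA4 (1.93, 0.0221), VIM (2.94, 0.0484), ALOXE3 (2.24, 0.033), BIK (1.32, 0.0448) and HK2 (1.20, 0.033). IL6 rose in both lines, from 0.058 to 4.19 CPM in Cal33 and from 1.90 to 8.59 CPM in SAS, with the sham level in SAS above that in Cal33. F3 was at 1108 ± 252 CPM (SD, n = 3) in SAS under sham, above the 844 ± 104 CPM that Cal33 had after irradiation, and at 1330 ± 82.0 CPM in SAS after 4 Gy.

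The difference was smaller in Cal33, or of the other sign, for SERPINB10 (-4.22, adjusted p = 0.033), WNT9A (-2.50, 0.026), BARX2 (-2.43, 0.0221), AC016683.6 (-1.67, 0.033), ALDOC (-1.37, 0.0357) and CPT1A (-1.14, 0.033). BARX2, a homeobox gene, had a log2 fold change of -0.39 in Cal33 and 2.01 in SAS. Levels in SAS were low for SERPINB10, at 0.12 CPM under sham and 0.57 CPM after 4 Gy. They were also low there for AC016683.6, at 0.15 and 0.51 CPM. CPT1A went from 104 ± 1.69 to 58.5 ± 9.58 CPM in Cal33 and from 32.0 ± 3.42 to 39.0 ± 1.3 CPM in SAS. No cause of these differences was tested, and each rests on 3 libraries per group.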

How the results depend on the processing

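Calls of 4 Gy against sham in Cal33 numbered 783, and 2005 with DESeq2, 1829 with no filter on low counts, 1528 with all 12 Cal33 libraries in the fit, 1795 at an adjusted p under 0.1 and 70 under 0.01. With each library left out in turn they ranged from 65 to 696. DESeq2 size factors, a mean of at least 10 counts, counts without regard to strand, removal of mitochondrial genes and small structural RNAs, or a 2-fold limit kept the count between 572 and 782. The DESeq2 calls held 775 of the 783 genes, at a split of 1115 higher and 890 lower. Same-numbered 4 Gy and sham libraries had r = 0.082, 0.28 and -0.48 across 18218 genes, which shows no pairing by number and cannot exclude one. A replicate block gave 921 calls. Libraries of unequal number had higher values, namely 4 Gy 1 with sham 3 (0.573) and 4 Gy 3 with sham 2 (0.547). So did sham 3, 2 and 1 with GSK-J1 1, 3 and 2 (0.693, 0.662 and 0.444). Whether the sham numbers follow those of the other groups is not known, so the block of 921 may not join related libraries and no crossed fit was made. With GSK-J1, 895 calls became 2059 with DESeq2, 1963 with no filter and 4494 with the replicate block, and 101 to 1229 with a library left out. In SAS, 897 became 1975 with DESeq2, 1820 with no filter and 3869 with the replicate block, and 136 to 2532 with a library left out. The 23 genes that differed between the lines became 364 with DESeq2, 476 with no filter and 142 with the replicate block, and 0 to 97 with a library left out. The difference by GSK-J1 stayed at 0 in every fit. No gene named reversed its sign among called fits, and the median of the interferon-stimulated genes ranged from 1.31 without 4 Gy replicate 3 to 1.95 without 4 Gy replicate 2. The causes of these changes were not tested. Of mitochondrially encoded genes none remained once they were left out, so that setting gave no value for them. Depth limits only genes with a few counts per library.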
